A study of Homo sapiens with 2 samples.

Results

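Small interfering RNAs (siRNAs) can lower transcripts other than their target when those transcripts pair with the seed, bases 2 to 8 of the guide strand. The probes described here are the linear probes, those not in the custom series for circular RNAs, whose listed sequence of 60 bases holds the reverse complement of the seed of an siRNA used against FOXA1. There were 1098 such probes among 116953 linear probes, and the array held 138405 probes in all. The match of siFOXA1-186 occurred in 489 of them, that of siFOXA1-1415 in 530 and that of siFOXA1-1520 in 82. A further set of 127 linear probes held the seed match of the control siRNA and served for comparison. Only 2 probes held both the siFOXA1-186 and the siFOXA1-1415 match, and 1 held both the siFOXA1-186 and the siFOXA1-1520 match. The control match stood beside a FOXA1 match in 3 probes, 2 of them with siFOXA1-186 and 1 with siFOXA1-1415, and these probes were counted in both groups.

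The samples were HepG2 cells, an established human liver tumour line, taken 48 h after transfection. One group (NC) received an siRNA of scrambled sequence, and the other (siFOXA1) received a mixture of 3 siRNAs against FOXA1. Each group was measured on 1 one-colour array, so there is no replicate check on any difference below and no test was made between the groups. The 3 FOXA1 siRNAs were given together, so their matches can be told apart only by sequence and not by sample. In the columns used here the probes carry no gene names, so the level of FOXA1 and of liver markers was not analysed and the members are described by probe name. Detection was similar on the arrays, with 53.4% of non-control spots well above background for NC and 52.4% for siFOXA1, and 0 spots were saturated.

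An siRNA enters an Argonaute protein, which discards the passenger strand and keeps the guide. A transcript that pairs with the guide along its whole length is cut, whereas one that pairs mainly with the seed can be repressed and degraded in the way a microRNA acts. Seed pairing is best known from the untranslated ends of messenger RNAs, and it is a recognised source of off-target change in knockdown experiments. FOXA1 itself is a pioneer transcription factor of liver and other endodermal tissues, which opens chromatin at enhancers.

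The guide strands are shown because their capitals, bases 2 to 8 from the 5′ end, fix which probes are members. All are written 5′ to 3′ with a DNA overhang of 2 bases at the end.
siFOXA1-186 guide: uAGUAGCUguuccagucgctt
siFOXA1-1415 guide: aCACACCUugguaguacgctt
siFOXA1-1520 guide: aAGGCGAGuauugcagugctt
control siRNA guide: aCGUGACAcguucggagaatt
The 19 bases that each guide would pair with in full are shown next as DNA, with the seed match in capitals.
siFOXA1-186 target: gcgactggaacAGCTACTa
siFOXA1-1415 target: gcgtactaccaAGGTGTGt
siFOXA1-1520 target: gcactgcaataCTCGCCTt
control siRNA target: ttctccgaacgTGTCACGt
The seed matches differ in base makeup, and only that of siFOXA1-1520 and that of the control siRNA hold the dinucleotide CG, which is scarce in human transcripts.

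Among 2370 mature human microRNAs in RefSeq (GRCh38.p14), 1 shared a seed with these guides. It was hsa-miR-1228-3p, at chr12:57194555-57194574 on the plus strand, which has the seed of siFOXA1-1415 in capitals here and is shown because the same transcripts would offer it a seed match.
hsa-miR-1228-3p: uCACACCUgccucgcccccc
The seeds of siFOXA1-186, siFOXA1-1520 and the control siRNA were shared by 0 of these microRNAs, and so were the seeds of all 4 passenger strands.

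Searched in the listed direction alone, AGCTACT (siFOXA1-186) was held by 0.418% of linear probes, AGGTGTG (siFOXA1-1415) by 0.453%, CTCGCCT (siFOXA1-1520) by 0.07% and TGTCACG (control siRNA) by 0.109%. Matches began anywhere from position 1 to position 54 of the probe, with a median of 28 for siFOXA1-186, 27 for siFOXA1-1415, 23 for siFOXA1-1520 and 30 for the control. More than 1 match was held by 4 probes of siFOXA1-1415 and 1 of siFOXA1-1520. A probe shows only 60 bases of its transcript, so matches elsewhere in that transcript were not seen, and transcripts counted as having no match may carry one.

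A seed match has meaning only if the probe is listed in the sense of the transcript. The polyadenylation signal AATAAA, which is common near the end of sense transcripts, was therefore set against its reverse complement TTTATT. The signal was held by 5.14% of linear probes and its complement by 3.29%, a ratio of 1.57. The ratio was 1.95 in the catalogue probes and 1.35 in the second custom series, the 2 kinds that make up the linear probes. Within the catalogue it ran from 1.08 for probes named A_23 to 2.78 for those named A_33. Among the members 3.46% held the signal and 2.82% its complement, a ratio of 1.23. The excess of the sense signal was thus large in some kinds of probe and small in others, and no probe was turned or left out on this ground.

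Probes that hold a FOXA1 siRNA seed match were not, as a group, lower in the siFOXA1 cells. Their median log2 difference, siFOXA1 minus NC, was 0.01 with quartiles of -0.20 and 0.23, over the 596 members well above background on both arrays. All linear probes had a median of -0.02 with quartiles of -0.23 and 0.19 over 62059 probes. The members' median therefore lay 0.03 above that of all linear probes. This small difference was 0.033 with no scaling, median scaling or the authors' values, and 0.034 with quantile normalization. It changed more with other steps, to 0.04 after cyclic loess, 0.017 after normexp background correction and 0.004 with no filter on dim probes. By kind of probe it was 0.009 for catalogue probes alone and 0.047 for the second custom series alone. All of these values were positive. Linear probes with none of the 4 matches, weighted to the members' mean signal in 10 bins and GC content in 3 bins, had a median of -0.02. Of the members, 48.8% had a negative difference, against 53.2% of all linear probes. Single members ranged from -3.26 to 3.33.

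Counts past a threshold gave a similar picture. Of the 1098 members, 657 (59.8%) were well above background on at least 1 array, against 58.2% of all linear probes. Of these 657, 86 (13.09%) were lower in siFOXA1 by more than 1.4-fold, where 12.3% of all linear probes were lower. Another 82 (12.48%) were higher by more than 1.4-fold, where 11.5% of all linear probes were higher. Seedless probes at the same signal and GC content would give 78.7 lower and 75.9 higher. The members' shares thus stood near the background in both directions. Of the 86 lower members, 60 were detected on each array and 26 on only 1 of them. Of the 82 higher members, 65 were detected on each array and 17 on only 1 of them. For members detected on 1 array alone the size of a difference is only a bound. At 1.2-fold, 158 members (24.05%) were lower against a background of 25.0%, and 152 (23.14%) were higher against 20.9%. At 2-fold, 24 (3.65%) were lower against 2.98%, and 26 (3.96%) were higher against 3.88%.

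For siFOXA1-186, 280 of 489 members were well above background on at least 1 array. The median over the 248 detected on both was 0.01, with quartiles of -0.19 and 0.20, and 38 members (13.57%) were lower and 29 (10.36%) higher by 1.4-fold. Matching seedless probes would give 35.8 lower and 33.6 higher. For siFOXA1-1415, 306 of 530 members were detected on at least 1 array, 40 (13.07%) were lower and 45 (14.71%) higher, and the median over 282 was 0.02. Matching seedless probes would give 35.8 lower and 35.6 higher, so this siRNA had more higher members than that and few more lower ones. Its quartiles, -0.21 and 0.26, were the widest of the 3 siRNAs.

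The members of siFOXA1-1520 were fewer and brighter. Of 82, 74 (90.2%) were well above background on at least 1 array, and their median signal over the probes detected on both arrays was 183.4 on NC and 145.4 on siFOXA1. For all linear probes these signals were 99.7 and 86.5. Their median GC content was 45.0%, against 43.3% for all linear probes. In this group 8 (10.81%) were lower and 8 (10.81%) were higher, where matching seedless probes would give 7.4 and 6.9. The median difference was -0.01 with quartiles of -0.14 and 0.15. Relative to all linear probes of the same kind it was -0.026 for catalogue probes and 0.071 for the second custom series, so the direction turned with the kind of probe.

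Probes with the control siRNA's seed match belong to an siRNA that was present in the NC cells and absent from the siFOXA1 cells. Their median difference was -0.06, with quartiles of -0.29 and 0.09, over 65 probes detected on both arrays. Relative to all linear probes the median was -0.035, and for catalogue probes alone it was 0.016, so the direction turned with the kind of probe. Any part of seed pairing in these values was not tested. Of 73 probes detected on at least 1 array, 13 (17.81%) were lower and 7 (9.59%) higher, where matching seedless probes would give 9.0 and 8.7. The difference from the background in lower probes is 4 probes, and the number of probes is small. At 1.2-fold 23 (31.51%) were lower and 10 (13.7%) higher, against 25.0% and 20.9% of all linear probes. At 2-fold 4 (5.48%) were lower and 2 (2.74%) higher, against 2.98% and 3.88%.

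The 2 kinds of linear probe were also described apart. Among catalogue members of any FOXA1 siRNA, 35 of 239 were lower and 27 higher, with a median of -0.01. All catalogue probes had 12.69% lower and 12.52% higher. Among members of the second custom series, 51 of 418 were lower and 55 higher, with a median of 0.02, where 12.02% and 10.93% of that whole series were lower and higher. The members printed once on the array numbered 1061, and the other 37 were printed 10 times. The linear probes detected on both arrays were also put into 3 classes of equal size by mean signal. The median of the members was 0.02 in the dimmest, 0.03 in the middle and -0.003 in the brightest class. All linear probes had 0.004, -0.03 and -0.04 in the same classes. The members' median was thus above that of all linear probes in each class.

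Pairing can extend beyond the seed, and some members matched more of a guide than others. For the 3 FOXA1 siRNAs together, 592 members matched only the 7 seed bases in a row, 376 matched 8 and 130 matched 9 or more. The median difference was -0.005 for a run of 7 over 318 probes detected on both arrays, 0.05 for a run of 8 over 215, and -0.06 for a run of 9 or more over 63. For runs of 10 or more, 28 probes of which 15 were detected on both arrays, it was -0.07. The medians had no steady order with the length of the run. Among the 73 detected members with 9 or more bases, 12 (16.44%) were lower and 9 (12.33%) higher, beside the 12.3% and 11.5% of all linear probes.

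The members with 9 or more bases matched to siFOXA1-1415 gave the lowest median among those 9-base groups. There were 69, of which 31 were detected on both arrays, and their median was -0.15 with quartiles of -0.38 and 0.19. Of 34 detected on at least 1 array, 7 (20.59%) were lower and 3 (8.82%) higher, against 12.3% and 11.5% of all linear probes. The same group had a median of 0.02 for siFOXA1-186 over 28 probes and 0.02 for siFOXA1-1520 over 4 probes. With quartiles on both sides of 0 and 31 probes, the siFOXA1-1415 median rests on few values, and it was picked out after the values were seen.

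An adenine opposite guide base 1 marks the strongest class of microRNA site. For siFOXA1-186, 88 members had it, the median was 0.02, and of 51 detected 7 (13.73%) were lower and 4 (7.84%) higher. For siFOXA1-1415, 128 had it, the median was 0.002, and of 73 detected 5 (6.85%) were lower and 14 (19.18%) higher, against 12.3% and 11.5% of all linear probes. For siFOXA1-1520, 11 had it, with a median of -0.06 and with 1 lower and 0 higher of 11 detected. The shares lower for siFOXA1-186 (13.73%) and siFOXA1-1520 (9.09%) stood on either side of the 12.3% of all linear probes. Both rest on few probes. The 33 control matches with this adenine had a median of -0.15 over 17, with 4 lower and 2 higher of 20 detected. Linear probes that matched bases 2 to 7 but not base 8, a weaker class of site, had medians of -0.03 for siFOXA1-186 over 460 probes, -0.01 for siFOXA1-1415 over 582 and -0.09 for siFOXA1-1520 over 164. The control siRNA gave -0.03 over 100, and all linear probes had -0.02. Negative differences made up 66.5% of this class for siFOXA1-1520, 52.8% for siFOXA1-186, 51.4% for siFOXA1-1415 and 55.0% for the control. Among all linear probes the share was 53.2%.

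The longest run around the seed was 12 bases for siFOXA1-186, held by 1 probe that was not well above background on either array. Among members detected on at least 1 array the longest runs were 11 bases for siFOXA1-186 and siFOXA1-1415 and 9 for siFOXA1-1520 and the control. The runs of the 3 brightest such members of each FOXA1 siRNA are shown, since these are the detected members with the longest runs around the seed. All letters in capitals are paired.
CUST_H6L_35497, siFOXA1-186: GAACAGCTACT
A_24_P56252, siFOXA1-186: GAACAGCTACT
CUST_H6L_72706, siFOXA1-186: AACAGCTACTA
A_33_P3342235, siFOXA1-1415: CCAAGGTGTGT
CUST_H6L_67439, siFOXA1-1415: ACCAAGGTGTG
A_23_P13753, siFOXA1-1415: CCAAGGTGTGT
A_23_P116091, siFOXA1-1520: ACTCGCCTT
CUST_H6L_69254, siFOXA1-1520: ACTCGCCTT
CUST_H6L_48425, siFOXA1-1520: TACTCGCCT
CUST_H6L_35497 read 6165.2 on NC and 5554.2 on siFOXA1, a scaled log2 difference of 0.05, or -0.02 after normexp background correction. A_24_P56252 read 193.7 and 182.3 (0.11). CUST_H6L_72706 was dim, at 22.3 and 31.6, and higher by 0.71, or by 0.29 after normexp. The first 2 thus differed little between the arrays. For siFOXA1-1415, A_33_P3342235 was very bright, at 202769.4 and 207040.8, with a difference of 0.23, or 0.08 after normexp. CUST_H6L_67439 read 43.8 on both arrays (0.20). A_23_P13753, which held the same 11 bases as A_33_P3342235, read 51.5 and 23.9, a difference of -0.91, or -0.32 after normexp. The same paired run thus went with a small difference in a very bright probe and a decrease in a dim one, and both differences shrank after normexp. For siFOXA1-1520, A_23_P116091 read 688.0 and 501.4 (-0.26), CUST_H6L_69254 read 69.0 and 70.8 (0.24), and CUST_H6L_48425 read 41.8 and 44.4 (0.29). For the control siRNA, a run of 9 bases was held by 4 detected probes, and the 3 brightest had differences of -0.04 for A_21_P0011332, 0.05 for CUST_H6L_72885 and -0.07 for CUST_H6L_23344.

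No linear probe held a full target site of any of these siRNAs. Searched anywhere along the 19 bases, with or without the seed, the longest stretch was 13 bases for siFOXA1-186 and siFOXA1-1415 and 11 for siFOXA1-1520 and the control. The 13-base stretches both paired guide bases 3 to 15 and missed base 2, so their probes are not members.
CUST_H6L_13143, siFOXA1-186: CTGGAACAGCTAC
A_22_P00018899, siFOXA1-1415: ACTACCAAGGTGT
CUST_H6L_13143 read 51.0 on NC and 43.8 on siFOXA1, a difference of -0.02. A_22_P00018899 was not well above background on either array. The 11-base stretch of siFOXA1-1520, in CUST_H6L_31636, covered guide bases 7 to 17, and that probe read 1031.1 and 996.0 (0.15).

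Single members did change by large amounts, in both directions. The probes named next had the largest changes among members detected on both arrays whose change exceeded 1.4-fold, with the same sign, whether the arrays were scaled by percentile, corrected with normexp or quantile normalized. Of the members detected on both arrays, that was true of 10 lower (4.03%) and 9 higher (3.63%) for siFOXA1-186, and of 11 (3.9%) and 13 (4.61%) for siFOXA1-1415. For siFOXA1-1520 it was true of 5 (7.25%) and 3 (4.35%), and for the control siRNA of 3 (4.62%) and 2 (3.08%). Over all linear probes the shares were 3.46% lower and 3.31% higher, or 2149 and 2057 probes.

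For siFOXA1-186 the largest decreases were smaller than the largest increases. A_33_P3423270 read 89.4 on NC and 35.0 on siFOXA1, a log2 difference of -1.15. A_23_P167997 read 18396.9 and 7742.0 (-1.05), and A_33_P3229083 read 32055.9 and 14701.8 (-0.92). The last 2 are bright probes and matched the 7 seed bases alone. The largest increase of any member was that of CUST_H6L_56339, which read 21.1 on NC and 183.9 on siFOXA1 (3.33). CUST_H6L_18549 read 162.1 and 512.0 (1.86), and CUST_H6L_11077, with 9 bases matched, read 238.1 and 699.3 (1.76). After normexp the decreases were -0.59, -1.14 and -0.96 and the increases 1.79, 1.51 and 1.49, so the dimmest probe in each direction changed most with the correction. These 3 increases came from the second custom series and the 3 decreases from the catalogue.

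For siFOXA1-1415 the largest decreases exceeded the largest increases. CUST_H6L_60579 read 426.6 on NC and 38.9 on siFOXA1, a log2 difference of -3.26. CUST_H6L_39812, with 9 bases matched, read 2296.0 and 326.5 (-2.61), and A_24_P365721, with 8, read 251.1 and 50.4 (-2.11). All 3 remained past 2-fold lower under normexp, which gave -2.21, -2.53 and -1.39. The increases were 1.63 for A_21_P0013574 (719.5 and 1932.0), 1.59 for A_23_P65386 (72.6 and 189.6) and 1.24 for CUST_H6L_56147 (541.9 and 1115.9), and 1.52, 1.02 and 1.07 after normexp. Each of these higher probes matched 8 bases of the guide, and the lower ones matched 7, 9 and 8.

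For siFOXA1-1520, CUST_H6L_20261 read 1724.2 and 725.9 (-1.05), CUST_H6L_73841 read 861.3 and 367.4 (-1.03) and A_23_P374767 read 318.8 and 152.0 (-0.87). The increases were 1.84 for A_23_P58009 (22.1 and 69.1), 1.36 for A_23_P32233 (41.5 and 93.0) and 0.73 for A_24_P247074 (11128.1 and 16039.8). After normexp the decreases were -1.04, -0.99 and -0.72 and the increases 0.79, 0.78 and 0.67. The 3 lower probes were brighter on NC than the first 2 higher ones. Among control matches, A_24_P782308 fell most, from 931.3 to 272.1 (-1.57), followed by A_32_P6015 at 124.0 and 51.0 (-1.08) and CUST_H6L_20427 at 644.9 and 369.6 (-0.60). A_23_P24332 read 51.6 and 150.2 (1.74), and CUST_H6L_15789 read 173.2 and 267.2 (0.83). After normexp these 5 differences were -1.46, -0.63, -0.66, 1.01 and 0.63. Among the control matches too, named probes changed by more than 2-fold in both directions, under normexp as well.

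Members printed 10 times give the spot error, which covers 1 hybridisation each and not the spread between cultures. Over the 2561 linear probes printed 10 times and detected on both arrays, the median SD between spots was 0.09 on NC and 0.10 on siFOXA1 (log2). CUST_H6L_60579, the siFOXA1-1415 member with the largest decrease, ran from 405.8 to 447.5 over its spots on NC, with a median of 426.7, and from 31.5 to 54.9 on siFOXA1, with a median of 37.8. Its spots did not overlap, and the difference of -3.26 had a standard error of 0.07 over spots. A_23_P41599, also a siFOXA1-1415 member, ran from 38.8 to 58.3 on NC (median 45.1) and from 75.9 to 84.9 on siFOXA1 (median 81.0). It was higher by 1.01 with a standard error of 0.06, again without overlap. The other 4 such members of this siRNA named by signal had differences of -0.04 (A_23_P54736), 0.24 (CUST_H6L_78559), 0.26 (A_24_P234792) and -0.13 (CUST_H6L_05749), and their spots overlapped after scaling.

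For siFOXA1-186, 12 members printed 10 times were detected on both arrays, and the scaled spots of 3 did not overlap. A_22_P00015441 read 334.3 to 368.3 on NC and 361.0 to 402.9 on siFOXA1, higher by 0.32 with a standard error of 0.02. The other two were dimmer and were named after their values were seen. A_23_P376188 read 34.2 to 46.1 on NC and 58.5 to 76.8 on siFOXA1 (0.90, standard error 0.06). A_33_P3277943 read 154.3 to 192.7 and 81.9 to 100.7 (-0.74, standard error 0.05). Of these 3 probes, 1 was lower and 2 were higher. A_24_P56252, with its run of 11 bases, read 162.0 to 221.3 on NC and 170.8 to 195.2 on siFOXA1, a difference of 0.11 with a standard error of 0.05. The brightest, A_33_P3398719, read 7529.0 to 8570.6 and 6613.3 to 7629.4 (0.01, standard error 0.03), and A_23_P219084, A_33_P3256168 and A_33_P3419938 lay between -0.20 and -0.08.

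Both siFOXA1-1520 members of this kind overlapped, with differences of -0.17 for CUST_H6L_04481 and -0.26 for A_24_P150486. Of the 3 control matches printed 10 times, A_24_P322771 did not overlap and was higher by 0.24 (standard error 0.03), A_33_P3303066 had -0.36 and A_23_P66813 had 0.02. In all, 3 of 12 members for siFOXA1-186, 2 of 10 for siFOXA1-1415, 0 of 2 for siFOXA1-1520 and 1 of 3 for the control did not overlap. Among all linear probes printed 10 times the share was 32.8%, with 480 lower and 359 higher. Non-overlap of spots was thus no more frequent among the FOXA1 matches than in the background.

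Some members share sequence, and these are not separate observations. For siFOXA1-186, 19 members fell into 5 sets that shared at least 20 consecutive bases, and the largest set had 11 probes, A_33_P3261132 and 10 of the second custom series. The 8 of them detected on both arrays read from 40.1 to 1361.4 on NC, and all had small positive differences, from 0.03 to 0.32. Another set was a pair that moved together in the other direction. A_33_P3334590 read 207.7 and 101.1 (-0.84), and CUST_H6L_45488 read 267.9 and 158.4 (-0.56). For siFOXA1-1415, 8 members fell into 3 sets, the largest of 4 probes, and 0 members of siFOXA1-1520 and of the control shared such a stretch. Both named sets were picked after their values were seen. With members that share such a stretch counted once, the siFOXA1-186 median relative to all linear probes was 0.012 in place of 0.032.

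The other windows of the same guides serve as a description beside the seed windows. Each guide of 19 bases has 13 windows of 7 bases, and the linear probes that match each were described in the same way. For siFOXA1-186 the medians of the other 12 windows ran from -0.06 to 0.02, and 11 of them were below the seed window's 0.01. For siFOXA1-1415 they ran from -0.10 to 0.04, with 11 below the seed window's 0.02. Both ends of that range come from windows with 13 and 11 probes detected on both arrays. The 10 other siFOXA1-1415 windows with at least 40 such probes ran from -0.08 to -0.01, all below the seed window. For siFOXA1-1520 they ran from -0.11 to 0.02, with 9 below the seed window's -0.01, and the 10 with at least 40 such probes ran from -0.11 to 0.01. The siFOXA1-186 seed window rests in part on probes that share sequence. With the members of every such set counted once, its median relative to all linear probes was 0.012 in place of 0.032. The other windows were not reduced in this way. For the control siRNA the range was -0.10 to 0.10, with 2 windows below the seed window's -0.06, and -0.10 to 0.06 over the 10 windows with at least 40 probes detected on both arrays. Neighbouring windows share most of their letters and some of their probes.

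Passenger strands can also be loaded, so matches of their bases 2 to 8 were described too. CCAGTCG (siFOXA1-186) was held by 72 linear probes, with a median of 0.08 and with 5 lower and 11 higher of 56. GTAGTAC (siFOXA1-1415) was held by 127, with a median of 0.11 and with 6 lower and 13 higher of 68. The passenger of siFOXA1-1415 is listed with 18 bases before the overhang and lacks the first base of the target. With that base added, a reading chosen after seeing the data, the match became TAGTACG, held by 32 probes, with a median of 0.14 and with 3 lower and 1 higher of 18. The counts of this passenger thus depend on which reading is right. TGCAGTG (siFOXA1-1520) was held by 722, with a median of -0.05 and with 65 lower and 45 higher of 404. The last had 16.09% lower, beside the 12.3% of all linear probes, while CCAGTCG and GTAGTAC as listed had 19.64% and 19.12% higher, beside the 11.5% of all linear probes. The control siRNA's TCGGAGA had a median of 0.08 over 61 probes detected on both arrays, with 7 lower (10.29%) and 13 higher (19.12%) of 68. A larger share of higher probes was thus seen for the control passenger as well. Probes that hold the seed's own letters, which would match the guides only if the probe were listed in antisense, had medians of -0.04 for AGTAGCT, -0.09 for CACACCT, -0.01 for AGGCGAG and -0.05 for CGTGACA. Of the probes holding AGTAGCT, 37 of 235 detected were lower (15.74%) and 19 higher (8.09%). For CACACCT it was 54 (15.47%) and 28 (8.02%) of 349, and for AGGCGAG 12 (18.18%) and 8 (12.12%) of 66. CGTGACA, the control siRNA's letters, had 13 lower (16.88%) and 8 higher (10.39%) of 77. All 4 sets thus had a larger share of lower probes than the 12.3% of all linear probes. The share also varied between the other windows of the guides, from 4.55% for ACTCGCC to 17.39% for TCTCCGA. None of these sets was matched for signal or GC content.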

How the data were processed

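HepG2 RNA was hybridised to 2 one-colour Agilent arrays, 1 for NC and 1 for siFOXA1. Per spot, the authors deposited the processed intensity from Feature Extraction 10.7.1.1, which is background-subtracted and spatially detrended but not normalized between arrays, with quality flags of 0 or 1 in other columns. They also deposited a table of log2 values, which was matched by quantile normalization of the mean log2 intensity per probe, with a median difference of 0.0002096. The siRNA strands were taken from the study's siRNA list, with the strand named Reverse read as the guide. The members and lists were chosen with earlier results of these data known.

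Control spots and spots flagged as outliers (1479 on NC and 1416 on siFOXA1) were left out, log2 intensities were averaged per probe, and each array's 75th percentile over probes (86.2 on NC and 75.0 on siFOXA1 as signals) was subtracted. A probe counted as well above background if at least 50% of its spots were. Counts cover probes detected in this sense on 1 array or both, and medians those detected on both. No test was possible with 1 array per condition, and the small number of arrays limits how precise any value is.

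Named probes were, per siRNA, up to 3 with the longest run matched to the guide, the 3 largest decreases and increases past 1.4-fold under 3 scalings (percentile, normexp, quantile), and up to 6 printed more than once. As alternatives, the arrays were left unscaled, scaled by the median, quantile normalized or fitted by cyclic loess. Further alternatives were percentiles over probes detected on both arrays or over spots, normexp with an offset of 50, the authors' log2 values, other detection filters, flagged spots kept, thresholds of 1.2-fold and 2-fold, and subsets of the members. The search and counts were tested on simulated data. Python 3.11.15, numpy 2.4.6, pandas 2.3.3, R 4.3.3 and limma 3.58.1 were used.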

Additional observations from a re-analysis of the deposited data

How the results depend on the processing

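No paired analysis was possible because NC and siFOXA1 had 1 array each, and no replicate could be left out. Of 75 medians recomputed, 72 stayed within the 95% order-statistic interval of the reported value. That interval is taken over probes, which are not replicates. It ran from 0.007 to 0.063 for all FOXA1 members and from 0.01 to 0.089 for siFOXA1-1415. For siFOXA1-186, siFOXA1-1520 and the control siRNA it held values of either sign. The medians outside the interval came with no filter on dim probes. There the median relative to all linear probes was 0.004 for all FOXA1 members, 0.005 for siFOXA1-1415 and -0.108 for siFOXA1-1520. The control siRNA's median relative to all linear probes ran from -0.065 to 0.016. That of siFOXA1-1520, 0.011 as reported, also turned sign for catalogue probes alone (-0.026) and after normexp (-0.002), and was highest, 0.071, for the second custom series alone. Of 170 counts, 113 were within 1.5 times the reported count. The percentile over spots was chosen after seeing the data and moved no count by more than 1.5 times.

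The other 57 counts follow, with shares of all linear probes in parentheses. Without scaling, members of any FOXA1 siRNA were 152 lower and 48 higher (all linear probes 23.39% and 7.21%), siFOXA1-186 had 68 lower, siFOXA1-1415 had 72 lower and 23 higher, siFOXA1-1520 had 5 higher, and the control had 21 lower. Normexp gave 29 lower and 27 higher for any FOXA1 siRNA (3.92% and 3.33%), 11 and 9 for siFOXA1-186, 12 and 15 for siFOXA1-1415, 3 higher for siFOXA1-1520, and 4 and 2 for the control. With no filter on dim probes, 152 of any FOXA1 siRNA were higher (13.33%), siFOXA1-186 had 61 lower (12.09%) and 62 higher, siFOXA1-1415 had 81 higher and the control 13 higher. With detection on both arrays, siFOXA1-186 had 23 lower (9.57%) and the control 4 higher (9.38%). At 1.2-fold (25.0% and 20.9%) there were 158 lower and 152 higher for any FOXA1 siRNA, 72 and 56 for siFOXA1-186, 74 and 81 for siFOXA1-1415, 15 higher for siFOXA1-1520 and 23 lower for the control. A 2-fold threshold (2.98% and 3.88%) left 24 lower and 26 higher for any FOXA1 siRNA, 12 and 9 for siFOXA1-186, 9 and 14 for siFOXA1-1415, 3 and 3 for siFOXA1-1520, and 4 and 2 for the control. Catalogue probes alone (12.69% and 12.52%) gave 35 lower and 27 higher for any FOXA1 siRNA, 16 and 8 for siFOXA1-186, 15 and 14 for siFOXA1-1415, 4 and 5 for siFOXA1-1520, and 6 and 2 for the control. The second custom series alone (12.02% and 10.93%) gave 51 lower for any FOXA1 siRNA, 22 for siFOXA1-186, 25 for siFOXA1-1415, 4 lower and 3 higher for siFOXA1-1520, and 7 lower for the control. Subsets and thresholds change the counts by their construction.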
